A study of Mus musculus with 6 samples.

Results

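A set of 9 genes of cytotoxic lymphocytes was followed in lymph node T cells sorted as CD4+YFP+. They encode the 2 chains of the CD8 co-receptor (Cd8a and Cd8b1) and receptors of natural killer (NK) cells (Klrd1, Klrk1, Klrc1, Klre1, Klrg1, Klrb1c and Ncr1). Members were all probe sets whose only annotated gene symbol is one of these 9, which gave 13 of the 45101 probe sets on the array, for 8 of the 9 genes (18193 genes had such a probe set in all). For Klrb1c, the gene of the NK1.1 antigen in mice that have it, the 1 probe set also carries the symbol of Klrb1b, so Klrb1c has no value here. The arrays were 3 from Dicer lox/lox cells (KO) and 3 from Dicer wt/lox cells (Het), lettered A, B and C in each genotype. All mice carried FoxP3-GFP-hCre, in which the promoter of Foxp3 drives Cre, and ROSA26R-YFP, which Cre switches on for good, so the sorted cells had expressed Foxp3 at some time and Cre could delete both copies of Dicer in KO cells and a single copy in Het cells. Age and sex are not given in the sources used here, nor whether arrays of a group came from separate or pooled animals. The p-values therefore measure the spread between these arrays, which may be technical.

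CD8 binds major histocompatibility complex (MHC) class I beside the T cell receptor. Its alpha chain pairs with the beta chain on cytotoxic T cells, and alpha chains also pair with each other on some dendritic cells and innate-like T cells. The killer cell lectin-like receptors (the Klr genes) are surface proteins of NK cells, and activated T cells can switch several of them on. Klrd1 encodes CD94, which reaches the surface as a partner of NKG2A, the inhibitory chain encoded by Klrc1. Klrk1 encodes the activating receptor NKG2D, Klrg1 encodes an inhibitory receptor for cadherins that is found on effector T cells and on some regulatory T cells, and Ncr1 encodes NKp46, a defining receptor of NK cells. In the mouse genome (GRCm38.p6) Cd8b1 and Cd8a are direct neighbours on chromosome 6. Klre1, Klrd1 and Klrk1 also follow one another there among protein-coding genes, with Klrc3 next and Klrc1 beyond Klrc2, and Ncr1 is on chromosome 7.

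Upstream stretches of 3 genes are shown because these genes gave 3 different patterns over the arrays: Cd8a high on both B arrays, Klrk1 high on KO B alone, and Klrc1 higher on all KO arrays. Each is the 250 bases before a transcript start from RefSeq (GRCm38.p6), 5′ to 3′ on the gene's strand. Capitals mark the core letters of Runx sites (TGTGGT) and of T-box sites (TCACAC), searched on both strands, and no matches overlapped. The Cd8a stretch lies at chr6:71373177-71373426 on the plus strand, the Klrk1 stretch at chr6:129623865-129624114 and the Klrc1 stretch at chr6:129678974-129679223, both on the minus strand.
Cd8a: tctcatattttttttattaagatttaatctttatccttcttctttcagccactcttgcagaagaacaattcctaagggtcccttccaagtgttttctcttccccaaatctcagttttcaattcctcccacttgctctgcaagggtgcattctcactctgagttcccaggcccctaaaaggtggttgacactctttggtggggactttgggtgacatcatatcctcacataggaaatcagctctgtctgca
Klrk1: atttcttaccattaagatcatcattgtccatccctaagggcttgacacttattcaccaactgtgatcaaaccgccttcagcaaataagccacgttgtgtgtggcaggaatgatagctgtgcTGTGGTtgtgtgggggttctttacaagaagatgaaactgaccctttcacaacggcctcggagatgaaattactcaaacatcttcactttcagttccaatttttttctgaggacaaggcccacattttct
Klrc1: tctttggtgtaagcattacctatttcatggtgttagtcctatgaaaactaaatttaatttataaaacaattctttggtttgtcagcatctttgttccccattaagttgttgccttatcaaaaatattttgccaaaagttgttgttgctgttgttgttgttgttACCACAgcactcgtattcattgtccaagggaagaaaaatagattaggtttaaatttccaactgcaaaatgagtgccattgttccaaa
The Klrk1 stretch held 1 Runx core, starting 129 bases before the transcript start, and the Klrc1 stretch held 1 on the opposite strand, starting 87 bases before it. Neither core was found in the Cd8a stretch, and no T-box core was found in these 3. Among the 32851 RefSeq stretches of the same length, 14.0% held a Runx core and 12.3% a T-box core. Of the 9 members 6 matched the RefSeq promoter table (Cd8a, Klrk1, Klrc1, Klre1, Klrb1c and Ncr1), with 8 stretches in all, since Klre1 and Ncr1 had 2 overlapping ones each. The Klrb1c stretch held a Runx core, 1 Klre1 stretch held a Runx core and the other a T-box core, and both Ncr1 stretches held both cores. The shares above are per stretch, so no count of genes is set against them.

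The arrays and the cells were checked first. Median intensities were 58.1 to 61.5 per array, and 3 arrays per group limit the precision. Cd4 read 5298, 5161 and 6651 in KO cells and 4694, 5177 and 5809 in Het cells on its brighter probe set, and Cd3e, a chain of the T cell receptor complex, read 14440, 12490 and 15250 in KO cells and 13820, 15250 and 16450 in Het cells. Foxp3 read 5453, 9417 and 5420 in KO cells and 9960, 8945 and 9769 in Het cells, so it overlapped between the groups and KO B lay with the Het arrays (limma, adjusted p = 0.285). Dicer1 read 1029, 1053 and 1187 in KO cells and 1203, 1077 and 1059 in Het cells on its brighter probe set, and its other probe set gave adjusted p = 0.145. These sets do not check the genotype labels, since nothing used here places them relative to the floxed exons. In bulk samples such as these, more cells of a type and more RNA per cell cannot be told apart.

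None of the members passed the test of KO against Het. Of the 13 probe sets 9 had a log2 intensity above 4 on at least 3 of the 6 arrays and were tested, in a fit over all 29507 such probe sets. By limma 0 of 9 had an adjusted p under 0.05, against 1.78% of all probe sets tested (1.11% higher and 0.668% lower in KO), and 0 of 13 passed in a fit without that filter (0.921% of 45036). At an unadjusted p under 0.05 there were 2 of 9, Klrc1 and Klrg1, both higher in KO, and 19.1% of all probe sets were under it (9.24% of all were under it and higher in KO). The groups did not overlap for 3 of 9 (Klrc1 and Klrg1 higher in KO, Klre1 lower), against 26.2% of all probe sets tested (11.3% with KO higher and 14.9% with KO lower). The SE of the log2 difference had a median of 0.906 over the 9 and of 0.141 over all probe sets tested. The 9 had a median log2 difference of 0.35, and all probe sets tested had one of -0.03. Because 3 of the 9 belong to Cd8a, these counts describe the probe sets and do not stand for 9 separate genes. Klrc1 met the filter through its KO arrays alone, so its lack of overlap and its direction were fixed by the filter. It is counted both among those at an unadjusted p under 0.05 and among those without overlap. Neither count can therefore be read as support for a difference.

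**Figure D1:**
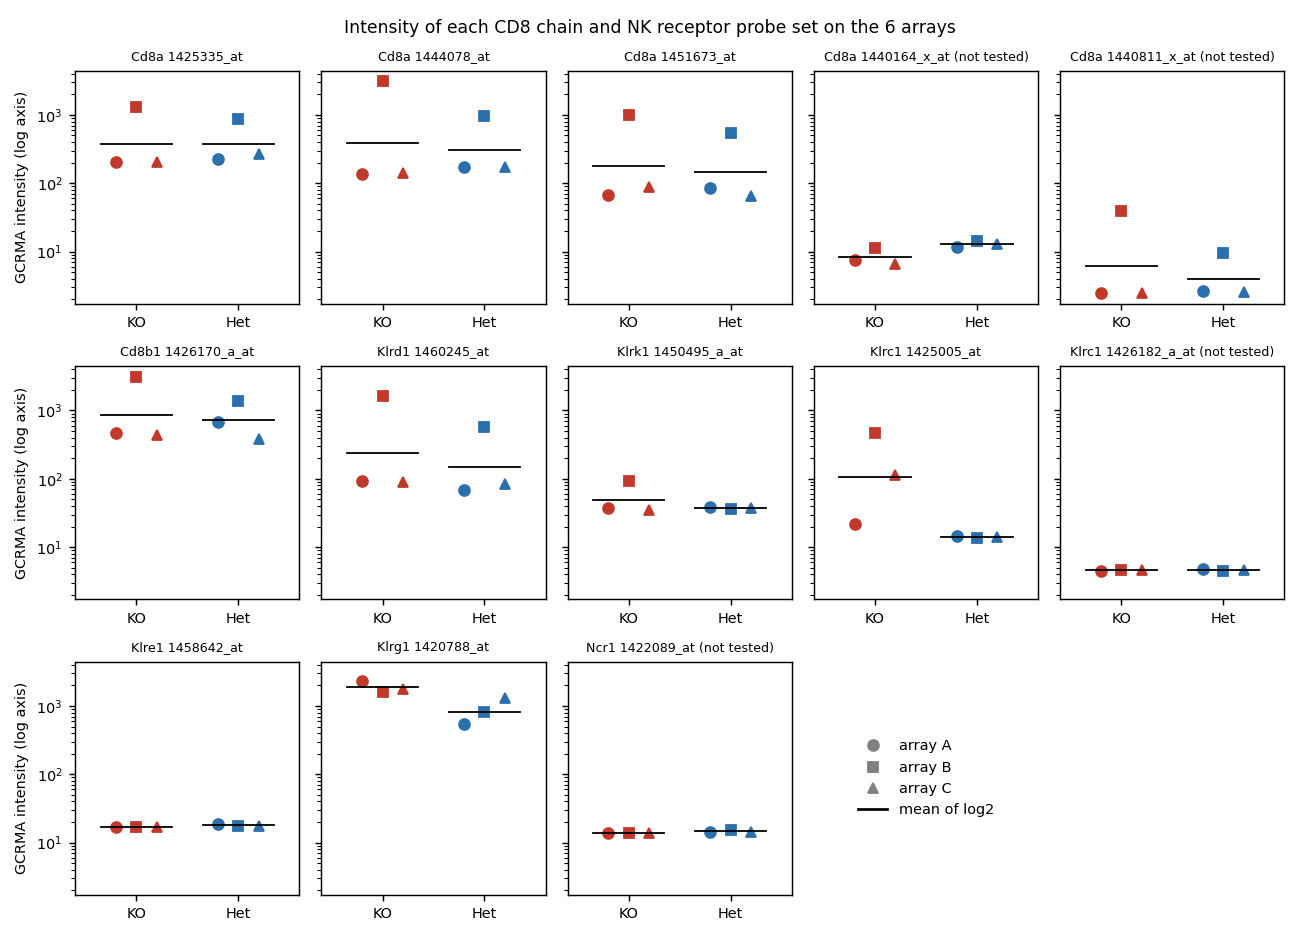
GCRMA intensity (log axis) of each of the 13 probe sets on the 3 KO arrays (left, red) and the 3 Het arrays (right, blue). Circles, squares and triangles are the A, B and C arrays and the line is the mean of log2 values. Squares stand above circles and triangles in both genotypes for the 3 tested Cd8a probe sets, Cd8b1 and Klrd1, Klrg1 is higher in KO without overlap, and Klre1 and Ncr1 are flat.

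The alpha chain gene Cd8a was high on 1 array of each genotype, the one lettered B. Its brightest probe set by mean log2 read 206, 1301 and 203 on KO A, B and C, against 223, 860 and 267 on Het A, B and C. The next brightest read 138, 3089 and 141 on the KO arrays and 171, 977 and 175 on the Het arrays, and the dimmest tested read 66.8, 1004 and 88.7 on the KO arrays and 84.1, 551 and 64.5 on the Het arrays. All 3 put KO B highest, Het B next and the A and C arrays of both genotypes well below. The KO minus Het log2 differences were 0.03 ± 0.91, 0.35 ± 1.43 and 0.33 ± 1.32 (SE; limma, adjusted p = 0.990, 0.918 and 0.915). Their 95% intervals were -2.22 to 2.28, -3.20 to 3.90 and -2.95 to 3.61, so a change of several fold either way lies within them. Without KO B the log2 differences were -0.86, -1.14 and -0.90, and without both B arrays they were -0.26, -0.31 and 0.06 (adjusted p = 0.412, 0.232 and 0.889).

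Both remaining Cd8a probe sets, of the kind whose probes can match other sequences (suffix _x_at), were too dim to be tested. One of them read 2.49, 39.2 and 2.47 on the KO arrays and 2.63, 9.60 and 2.58 on the Het arrays, again with KO B highest and Het B next. The other read 7.43, 11.3 and 6.67 on the KO arrays and 11.6, 14.2 and 12.8 on the Het arrays, lower on each KO array than on any Het array. They therefore differed in sign, at log2 0.63 and -0.63, and neither passed when no filter was applied (limma, adjusted p = 0.834 and 0.288).

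Cd8b1, the beta chain gene, followed the alpha chain. Its probe set read 464, 3114 and 433 on KO A, B and C, against 686, 1397 and 383 on Het A, B and C. KO B was again highest and Het B next, and the 4 other arrays overlapped between genotypes. The log2 difference was 0.26 ± 0.91 (SE; 95% interval -1.99 to 2.50; limma, adjusted p = 0.903), -0.68 without KO B and -0.19 without both B arrays.

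Among the NK receptors, Klrd1 (CD94) had the pattern of the CD8 chains. It read 91.8, 1621 and 89.0 on KO A, B and C, against 69.2, 566 and 83.1 on Het A, B and C. KO B and Het B were the highest arrays, and on A and C both KO values lay above both Het values, by small steps. The log2 difference was 0.68 ± 1.42 (SE; 95% interval -2.85 to 4.20; limma, adjusted p = 0.837), and it was 0.25 without both B arrays and -0.71 without KO B.

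Klrc1, whose product NKG2A pairs with CD94, was at the lower end of the scale in Het cells and higher in KO cells. Its brighter probe set read 22.0, 469 and 112 on KO A, B and C, against 14.4, 13.7 and 14.1 on Het A, B and C. Every KO array lay above every Het array, KO A by little and KO B by far. It met the filter through its KO arrays alone, so being tested already required that separation. The separation is therefore not set against the 11.3% of all probe sets tested that had it. The log2 difference was 2.90 ± 1.07 (SE; 95% interval 0.24 to 5.55; limma, unadjusted p = 0.0373, adjusted p = 0.228, or 0.339 in the fit without the filter). It was 1.82 without KO B, 4.03 without KO A and 1.80 without both B arrays, and 1.77 when 32 was added to every intensity before log2, which lessens the weight of values near the floor of the GCRMA background step. The other Klrc1 probe set read between 4.53 and 4.82 on all 6 arrays and was not tested.

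Klrk1 (NKG2D) stood out on 1 array. It read 37.2, 92.7 and 35.4 on KO A, B and C, against 38.3, 36.2 and 37.4 on Het A, B and C. Het B lay with the A and C arrays, while for Klrd1 and the CD8 chains it was high. KO B was the 1 array on which Klrk1 lay above the array's median probe set, so its other values were dim. The log2 difference of 0.41 ± 0.38 (SE; limma, adjusted p = 0.623) was -0.04 without KO B.

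Among the members, Klrg1 was the 1 whose KO arrays were all above its Het arrays with all 6 arrays over the array medians. It read 2323, 1590 and 1782 on KO A, B and C, against 538, 806 and 1288 on Het A, B and C. The lowest KO array lay above the highest Het array, and on the log2 scale the Het arrays were more spread than the KO arrays. The log2 difference of 1.19 ± 0.34 (SE; a fold of 2.28; 95% interval 0.34 to 2.03) had an unadjusted p of 0.0142 and did not pass after adjustment over all probe sets (limma, adjusted p = 0.148). It lay between 0.88, without Het A, and 1.51, without Het C, when 1 array was left out. Here the B arrays did not stand apart: on the log2 scale KO B minus the mean of KO A and KO C was -0.36.

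Klre1 and Ncr1 were dim and flat. Klre1, which encodes a receptor that in NK cells pairs with KLRI proteins, read 16.7, 17.2 and 16.9 on KO A, B and C, against 18.7, 17.6 and 17.5 on Het A, B and C. Its groups did not overlap, yet the log2 difference was -0.08 ± 0.07 (SE; 95% interval -0.26 to 0.10; limma, adjusted p = 0.603). Ncr1, under the filter and not tested, read 13.8, 14.0 and 13.7 on the KO arrays and 14.3, 15.1 and 14.5 on the Het arrays. On every array both were dimmer than the array's median probe set, and each differed by at most 1.12-fold between any 2 arrays.

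**Figure D2:**
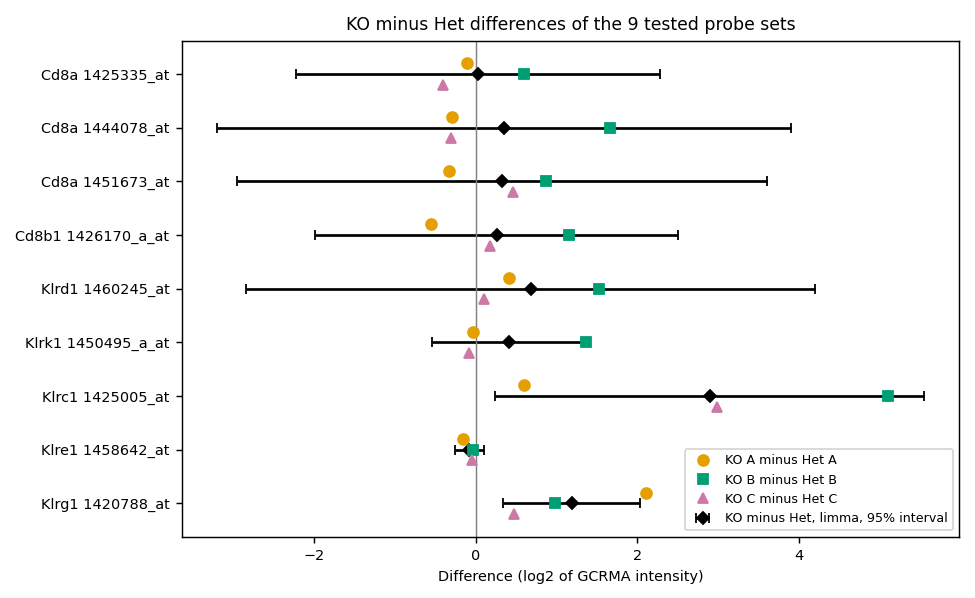
KO minus Het difference (log2 of GCRMA intensity) of the 9 tested probe sets, as the limma estimate with its 95% interval (black) and for the arrays of each letter (coloured). Intervals of the 3 Cd8a probe sets, Cd8b1 and Klrd1 span several log2 units, and the B pair (squares) lies to the right of the A and C pairs for all but Klrg1, up to 5.10 for Klrc1.

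For the CD8 chains and Klrd1 the B arrays differed from the A and C arrays by more than KO differed from Het. Relative to the mean of A and C, KO B was higher on the log2 scale by 2.67, 4.47 and 3.70 for the 3 tested Cd8a probe sets, and Het B by 1.82, 2.50 and 2.90. The same difference was 2.80 in KO and 1.45 in Het for Cd8b1, and 4.16 in KO and 2.90 in Het for Klrd1. For Klrc1 it was 3.24 in KO and -0.06 in Het, and for Klrk1 1.35 in KO and -0.07 in Het, so these receptors were high on KO B and not on Het B. In 5 of the 9 tested probe sets, from 3 genes, B exceeded both A and C in KO and in Het, against 9.42% of all probe sets tested. A B array at least 1 log2 unit above the mean of A and C in both genotypes was seen for the same 5, against 0.373% of all. KO B was the highest of the 6 arrays for 7 of the 9, against 19.6% of all. These counts were made with the earlier finding on the B arrays known, so they are a description.

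**Figure D3:**
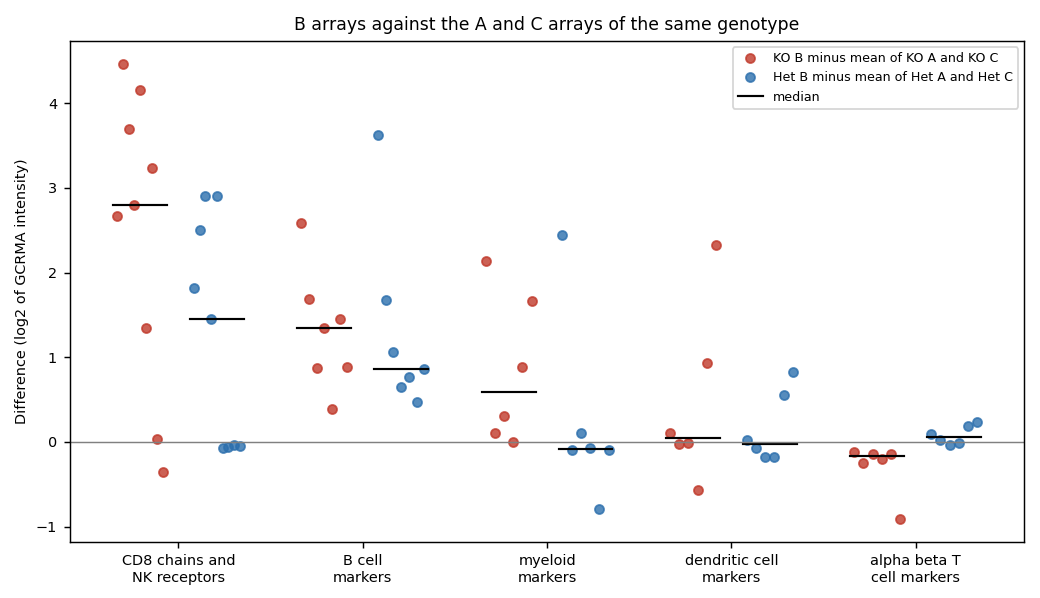
Log2 intensity of the B array minus the mean of the A and C arrays of the same genotype, KO (red, left) and Het (blue, right), for the 9 tested probe sets of CD8 chains and NK receptors and for tested marker genes of other cells. Points are probe sets or genes and lines are medians. The medians were 2.80 in KO and 1.45 in Het for the CD8 chains and NK receptors, and 1.34 and 0.86 for B cell markers. They were 0.60 and -0.09 for myeloid markers, 0.05 and -0.03 for dendritic cell markers, and -0.17 and 0.06 for alpha beta T cell markers. The 9 include 3 probe sets of Cd8a while markers have 1 per gene, so these medians are not like for like. In Het, Klrk1, Klrc1, Klre1 and Klrg1 lay at -0.07, -0.06, -0.04 and -0.05.

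Tested B cell markers were higher on the B arrays, as the CD8 chains were, and so were some, though not most, tested markers of other cells. All 7 tested B cell markers, of 9 listed, had B above A and C in both genotypes, and their summed intensity over the 8 with a probe set was 1995, 5226 and 2157 on KO A, B and C and 1146, 2631 and 1196 on Het A, B and C. Cd22 was the largest part of this sum on every array but Het B, where Cd79b slightly exceeded it (845 against 840). Pax5, too dim to be tested, was not higher on KO B. It read 9.31, 9.28 and 11.9 on the KO arrays and 9.62, 15.2 and 9.64 on the Het arrays. Ms4a1, the gene of CD20, read 122, 717 and 117 on the KO arrays and 37.4, 524 and 48.1 on the Het arrays. Of 6 tested myeloid markers 2 had B above A and C in both genotypes, as had 2 of 6 dendritic cell markers. So had 1 of 3 plasma cell markers and 0 of 6 alpha beta T cell markers. Among the myeloid markers Lyz2 read 232, 1408 and 441 on the KO arrays and 50.6, 381 and 97.4 on the Het arrays. The plasma cell marker was Jchain, at 389, 3197 and 2623 on the KO arrays and 11.5, 163 and 13.6 on the Het arrays. The summed myeloid markers were 695, 2226 and 1055 on the KO arrays and 470, 772 and 537 on the Het arrays, and the summed dendritic cell markers 2570, 2546 and 3019 on the KO arrays and 1935, 2285 and 2698 on the Het arrays. The summed alpha beta T cell markers were 111700, 95850 and 117300 on the KO arrays and 118000, 126700 and 122400 on the Het arrays. On KO B alone were also high Fcer1g, an adaptor of Fc and NK receptors (7.94, 164 and 8.52 in KO, 8.08, 7.69 and 8.34 in Het), and Itgax, the gene of CD11c (8.16, 52.0 and 8.11 in KO, 8.43, 8.05 and 8.27 in Het). Fcer1g, Itgax, Lyz2 and Jchain were chosen after their values were seen. In the test of KO against Het 0 tested markers of B cells, myeloid cells, dendritic cells, NK cells, alpha beta T cells or gamma delta T cells passed (1 gamma delta marker was tested), 1 of 3 plasma cell markers did, Xbp1, higher in KO, and 0 erythroid markers were bright enough to be tested. Whether other cells contributed to the B arrays' values was not tested.

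Genes on the list of NK cell markers went different ways on the B arrays. Ncr1, Klre1, Klra7 and Klra8 stayed dim on both, and Tyrobp, Eomes and Fcer1g were raised on at least 1 of them. Beside Ncr1 and Klre1, the Ly49 receptor genes (Klra), inhibitory or activating receptors for MHC class I, had a probe set for 7 genes, of which 1 was tested. They read between 4.64 and 25.1 on all arrays, with KO minus Het log2 differences between -0.32 and 0.21. Klra8 read 10.8, 10.5 and 10.5 on KO A, B and C, against 12.3, 9.31 and 11.1 on Het A, B and C. Tyrobp, Eomes and Fcer1g are expressed by T cells or myeloid cells too. Tyrobp and Eomes were higher on B in both genotypes, and Fcer1g, given above, on KO B alone. Tyrobp, the gene of the adaptor DAP12, read 33.2, 222 and 65.2 on the KO arrays and 14.3, 54.4 and 13.6 on the Het arrays. On Het B it lay under that array's median of 60.6. Over the 7 NK markers with a probe set, of 9 listed, the summed intensity was 998, 3301 and 944 on the KO arrays and 163, 423 and 274 on the Het arrays, with Eomes the largest part on each array.

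For 4 members the genes most alike over the 6 arrays were found by Pearson's r of log2 values among the other genes tested (1 probe set per gene, the brightest), as a description with no test. The arrays are shared by all genes, and for the first 3 members they fall into 2 B arrays and 4 others, so r mostly says that a gene was higher on B. For Cd8a these were Spib (r = 0.986), Klrd1 (0.983) and Cd79a (0.975), and for Klrd1 they were G6pc3 (0.984), Cd79a (0.983) and Cd8a (0.983). Spib, a transcription factor gene of B cells and plasmacytoid dendritic cells, read 75.4, 181 and 72.9 on KO A, B and C and 77.7, 176 and 77.5 on Het A, B and C. Cd79a, a chain of the B cell receptor, read 88.9, 284 and 86.9 on the KO arrays and 69.2, 241 and 82.0 on the Het arrays. For Cd8b1 they were Chac2 (0.990), Smug1 (0.988) and Fancf (0.979). Klrg1 had none of these: its closest were Phlda3 (0.995), Cd59a (0.983) and Cyp2s1 (0.978). Phlda3 read 458, 362 and 372 on the KO arrays and 195, 250 and 304 on the Het arrays.

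Genes around these receptors were described by lists, with 1 probe set per gene. Over all 13280 genes tested 2.33% passed (1.37% higher and 0.956% lower in KO), and at an unadjusted p under 0.05 10.7% were higher and 11.6% lower. Of 36 other genes of the NK complex, the stretch of chromosome 6 that holds the Klr genes, 16 had a probe set with a single symbol and 12 of these lay below the array median on all arrays. Of the 16 genes 6 were tested and 0 passed (limma; 2 had an unadjusted p under 0.05, both higher in KO), with a median log2 difference of -0.05, as against -0.03 over all genes. Cd69, an early activation antigen, read 16260, 14580 and 21510 on KO A, B and C, against 11510, 6739 and 6568 on Het A, B and C (log2 1.11, adjusted p = 0.109). Klrb1f, a lectin-like receptor, read 300, 576 and 291 on the KO arrays and 245, 164 and 217 on the Het arrays (log2 0.84, adjusted p = 0.228). Both genes had every KO array above every Het array, as had 11.3% of all probe sets tested. They were named for the smallest p in this list, which favours such a separation.

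Adaptors that carry the receptors' signals did not pass either. Of 4 tested (5 of 7 had a probe set) 0 passed (limma; 1 had an unadjusted p under 0.05, and it was lower in KO), with a median log2 of -0.04. Sh2d1a, the gene of the adaptor SAP, read 4229, 3842 and 4294 in KO cells and 5847, 5720 and 5799 in Het cells. Its groups were well apart, at log2 -0.49 ± 0.08 (SE), and it missed the threshold narrowly (limma, adjusted p = 0.0511), with adjusted p between 0.0336 and 0.0496 under 5 of the 15 other settings and between 0.0509 and 0.17 under the other 10, which include each array left out. Hcst, the gene of DAP10, through which NKG2D signals, read 1581, 1628 and 1547 in KO cells and 1774, 1984 and 1389 in Het cells and overlapped. Tyrobp, above, gave log2 1.83 ± 0.87 (SE; adjusted p = 0.330).

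Of the receptors' ligands 10 of 18 had a probe set, 7 were tested and 0 passed (limma; 1 had an unadjusted p under 0.05, and it was higher in KO; median log2 0.17). H2-Q10, a secreted MHC class I gene, gave log2 0.31 (adjusted p = 0.227) and H2-D1, a classical one, 0.18 (adjusted p = 0.306). MHC class I genes are close copies of one another, so their probe sets may share signal. Of the other receptors of NK cells and cytotoxic T cells 11 were tested (15 of 17 had a probe set) and 0 passed (limma; 2 had an unadjusted p under 0.05, both higher in KO; median log2 0.13). Il18rap, a chain of the interleukin 18 receptor, read 541, 830 and 605 on the KO arrays and 169, 312 and 276 on the Het arrays (log2 1.41, adjusted p = 0.0746). Il2rb, the beta chain of the interleukin 2 and 15 receptors, gave log2 0.79 (adjusted p = 0.176), while its dimmer probe set read 5034, 5915 and 4224 in KO cells and 2651, 2089 and 2195 in Het cells and passed (log2 1.12, adjusted p = 0.0424).

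Among granule and chemokine genes 4 passed and 10 did not. Of the 14 genes listed, all tested, 4 rose and 0 fell (median log2 1.05): Gzma, Gzmb and Gzmk, which encode granzymes, and Serpinb9, the gene of a granzyme B inhibitor. Serpinb9 read 2574, 2661 and 3280 in KO cells and 874, 942 and 567 in Het cells (log2 1.86 ± 0.22, SE; limma, adjusted p = 0.0287). Of its 2 probe sets 1 passed. Gzma and Gzmk, which were dim in Het cells, did not pass in the fit without the filter (limma, adjusted p = 0.0575 for Gzma and 0.0693 for Gzmk) or with 32 added to every intensity (0.051 for Gzma and 0.0524 for Gzmk), which left 2 of 14. Without both B arrays the log2 difference was 4.54 for Gzmb, 8.06 for Gzma, 4.58 for Gzmk and 2.05 for Serpinb9. With those 2 arrays a group 0 of the 14 genes passed (limma). In 4 of the 14 (Gzmk, Ctsw, Ccl5 and Xcl1) B lay above A and C in both genotypes, against 9.42% of all probe sets tested. Differences between genes were not tested.

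Some factors that set the CD4, CD8 and NK lineages rose and others fell. Of 15 tested (17 listed) 4 rose (Id2, Runx3, Tbx21 and Zeb2) and 2 fell (Tox and Id3), with a median log2 of 0.35. Counting any too dim to be tested, 2 of 3 probe sets passed for Id2, 1 of 2 for Runx3, 1 of 5 for Zeb2 and 2 of 3 for Tox. Tbx21 and Id3 had 1 each. Zeb2 met the filter through its KO arrays alone. In the fit without the filter Zeb2 and Id3 did not pass (limma, adjusted p = 0.0575 for Zeb2 and 0.0637 for Id3), which left 4 of 15. Runx3, which in the thymus silences Cd4 and keeps Cd8 on in the CD8 lineage, read 2468, 2965 and 2621 in KO cells and 1096, 1284 and 1029 in Het cells (log2 1.24 ± 0.12, SE; limma, adjusted p = 0.0232). Tbx21, the gene of T-bet, gave log2 2.13 (adjusted p = 0.0317) and Id2 1.38 (adjusted p = 0.0191). Tox gave log2 -1.12 (adjusted p = 0.0302). Zbtb7b, the gene of ThPOK, which holds the CD4 fate and represses CD8 genes, read 1208, 1401 and 1278 in KO cells and 1234, 1302 and 1903 in Het cells and did not pass (log2 -0.17, adjusted p = 0.685). Zeb2, Id3 and Zbtb7b were chosen after their values were seen. Of the 8 list genes named here by rule that passed (Gzmb, Serpinb9, Gzma, Gzmk, Id2, Runx3, Tox and Tbx21), 3 passed without KO A and 0 without any other single array, and 0 with the replicate letter as a block.

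**Figure D4:**
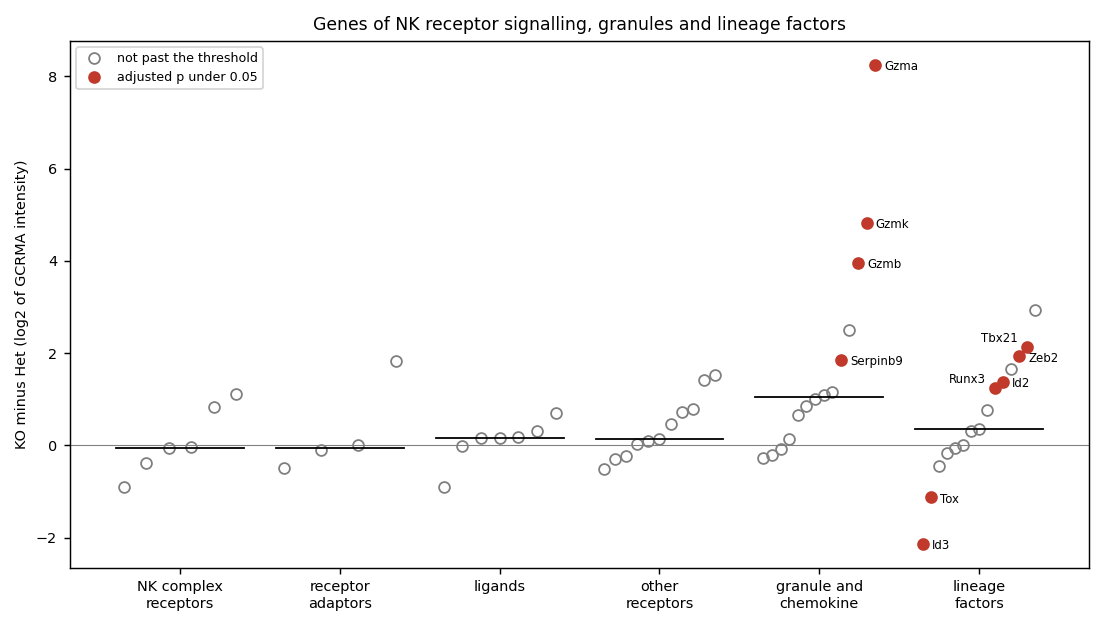
KO minus Het difference (log2 of GCRMA intensity) of each tested gene in the 6 lists, 1 probe set per gene, with list medians as lines. Filled points passed at an adjusted p under 0.05 by limma and are named: 4 granule genes higher in KO, and 4 factors higher and 2 lower.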

How the data were processed

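RNA of the 6 samples was taken up in TRIzol, and the MessageAmp II kit gave the biotin-labelled material for the arrays, per the labels. The deposited values are probe set intensities that the authors normalized with GCRMA, per the labels. GCRMA removes a background that it predicts from the bases of each probe, brings arrays to a common distribution and gives 1 value per probe set. The values run from 1.227 to 170023, a linear scale, so log2 was taken. Its background step holds dim probe sets near a floor, so a fold against a dim group can come out too large.

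Of 45101 probe sets, 64 controls were dropped, as was 1 set that lacked values, and 29507 with a log2 above 4 on at least 3 arrays were tested. Gene symbols came from the platform annotation table: 34944 of 45036 probe sets had 1 symbol, 932 several and 9160 none. Where 1 probe set stands for a gene it is the brightest one tested. KO was compared with Het in limma 3.58.1 (R 4.3.3; two-sided tests from lmFit and eBayes, genotype alone in the model), and p-values were adjusted by Benjamini-Hochberg over all probe sets tested, with a threshold of 0.05. The steps were tested on simulated data.

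The members, the 16 gene lists (7 of pathway genes, 9 of cell type markers) and the tests were chosen with earlier results of these data known. Named genes are the members, up to 4 per pathway list past the threshold by smallest p (or 2 where 0 passed), and the 3 genes most like each of Cd8a, Cd8b1, Klrd1 and Klrg1. In 15 alternative settings filters, normalization, the log scale, the variance model, array weights, the replicate letter as a block and arrays left out were changed. The 1 probe set shared by Klrb1b and Klrb1c was not used.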

Additional observations from a re-analysis of the deposited data

How the results depend on the processing

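In 15 alternative settings 0 member probe sets passed. The limma count over all probe sets, 525, was 0 with the replicate block (5365 at an unadjusted p under 0.05), 957 with array weights, 0 without both B arrays (5274 at an unadjusted p under 0.05) and 0 to 176 with 1 array left out (0 without KO C, 176 without KO A). Over all probe sets, deviations from the group means correlated between KO and Het at 0.28 for A, -0.17 for B and 0.01 for C. These values cannot settle whether the letters pair arrays, as a likeness confined to few genes would barely move them. The CD8 chains, Klrd1 and the tested B cell markers were higher on B in both genotypes. Klrg1, Klrc1 and Klre1 kept their direction in all alternatives that tested them (15, 14 and 14), Klrg1 between 0.88 and 1.51 and Klrc1 between 1.77 and 4.03. Their groups did not overlap, so leaving arrays out could not reverse them. For Klrc1 the filter had already fixed the direction. The kept directions are therefore a description and no support. The KO minus Het log2 of the brightest Cd8a probe set turned to -0.01 with quantile normalization, -0.18 with array weights and -0.26 without both B arrays, and that of the next brightest to -0.04 with array weights and -0.31 without both B arrays. Without both B arrays Cd8b1 turned to -0.19 and Klrk1 to -0.06. With 1 array left out, the 3 tested Cd8a probe sets, brightest first, ran from -0.86 to 0.63, from -1.14 to 1.18 and from -0.90 to 1.30, Cd8b1 from -0.68 to 0.75, Klrd1 from -0.71 to 1.64 and Klrk1 from -0.04 to 0.66, each lowest without KO B. For Klrc1, Klrk1, Klre1 and Ncr1 the dim signal limits what could be seen.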
